A study of Rattus norvegicus with 54 samples.

Results

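The 34 genes described here act in DNA replication and cell division, and they were read in bulk RNA sequencing of the nucleus accumbens of Long Evans rats. They were taken by gene symbol from a table of 46505 genes and loci, and each of the 34 symbols had a row with counts in all 54 libraries. The study asked how alcohol before birth, alone or followed by alcohol in adolescence, relates to gene expression in each sex and at each of 2 ages. Libraries fall into 8 groups. Brains taken on postnatal day 42 (P42) came 24 h after adolescent treatment ended. In these, the PAE-VEH rats had prenatal ethanol and then water in adolescence (9 male and 4 female libraries), and the FCL-VEH rats had a free-choice liquid diet before birth and then water (9 male and 7 female libraries). At P90, in adulthood and with no further challenge, the PAE-AAE rats had prenatal ethanol and then alcohol in adolescence (6 male and 5 female libraries), and the FCL-VEH rats again had the liquid diet and water (6 male and 8 female libraries). In adults prenatal and adolescent alcohol therefore come together and cannot be told apart. The pair-fed group of the wider study was not part of the accumbens samples, and no source used here gives the dose or route of the exposures.

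A dividing cell first licenses its replication origins by loading the MCM helicase, then copies its DNA with the help of the sliding clamp PCNA and a supply of deoxynucleotides, then condenses and separates its chromosomes on the mitotic spindle. Most of these transcripts rise and fall with the cycle: E2F factors drive the replication genes, and FOXM1 with the B-MYB and MuvB complex drives the genes of mitosis, while quiescent cells hold them down through DREAM. Neurons of the accumbens have left the cycle; in the adult rodent striatum the dividing cells are mainly oligodendrocyte precursors and microglia, and the nearby subventricular zone of the lateral ventricle holds neural stem cells, transit amplifying cells and neuroblasts.

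Libraries held 59.1 to 103.8 M counts, with a median of 72.5 M. Every group had high levels of medium spiny neuron genes, with medians of 1126 to 2040.0 CPM (counts scaled to each library's size, TMM-normalised) for Ppp1r1b, 251 to 386 for Drd1 and 152.2 to 218.5 for Drd2. In 3 of the 54 libraries Xist and the Y-linked genes went against the sex in the title: PAE-VEH male replicate 5 at P42, FCL-VEH male replicate 8 at P42 and FCL-VEH female replicate 5 at P42. They were kept in their labelled groups, and results that rest on them are also given without them. Choroid plexus, ependymal, cortical excitatory and septal and pallidal marker genes belong to tissue next to the accumbens, and their scores were screened. A further 9 libraries passed as rich in such tissue, all by a choroid plexus score (2.17 to 3.01) or a cortical score (2.52 to 3.55). They too were kept, and left out in an alternative. That alternative does not take out libraries for a high ependymal score: FCL-VEH P90 male replicate 3, at 2.06, was not among the 9. Since the labels do not say that each library is a separate animal, p-values measure the spread between these libraries. In bulk tissue, fewer cells of a type and less RNA per cell cannot be told apart.

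All 34 members passed the filter on low counts in each fit. In FPKM, the authors' deposited values per length and depth, Pcna was highest with a median over the 54 libraries of 31.9 (22.8 to 47.9), followed by Rrm1 at 12.4, Aurkb at 9.8 and Mcm7 at 8.57. Prc1, a microtubule bundler of the spindle midzone, had a median of 5.83 FPKM. The classical markers of cycling cells were far lower, with medians of 1.93 FPKM for Top2a and 1.12 for Mki67. Kif11, Kif20a and Birc5 closed the order at 0.347, 0.342 and 0.301 FPKM. Aurkb spanned 0.557 to 42.6 FPKM and Prc1 0.735 to 24.2, far wider than Pcna, so the upper part of the order was not the same in every library.

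The mitotic genes and the replication genes are known for different promoter elements. RefSeq promoter windows on GRCr8 were present for 26 of the 34 members, each set by 1 start per gene. For 11 members that start is the outer bound of the annotated gene, and for 15 it lies inside the gene, by 41 bases (Cdk1) to 41951 (Kif11). Windows of the 15, among them Mki67, Cenpe, Kif11 and Prc1, can hold transcribed bases of a longer transcript and are not printed. The 100 bases before the start are printed for 5 of the 11 that act in mitosis or on its chromosomes and for 3 replication members set against them. Capitals mark TTTGAA and TTTAAA, the forms of the cell cycle genes homology region (CHR) that the MuvB complex binds. They also mark CCAAT, the site of NF-Y, and the E2F site, which was searched as TTNNCGC with C or G at each N. Both strands were searched, so the reverse complements are in capitals as well. Adjacent or overlapping matches run together.

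Top2a: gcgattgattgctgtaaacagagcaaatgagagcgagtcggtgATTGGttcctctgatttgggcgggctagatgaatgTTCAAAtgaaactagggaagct

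Cdc20: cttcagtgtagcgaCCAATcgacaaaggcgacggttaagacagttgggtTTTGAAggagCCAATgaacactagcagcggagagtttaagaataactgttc

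Ccnb1: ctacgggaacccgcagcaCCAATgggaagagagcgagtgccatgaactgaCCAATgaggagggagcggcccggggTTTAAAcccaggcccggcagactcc

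Plk1: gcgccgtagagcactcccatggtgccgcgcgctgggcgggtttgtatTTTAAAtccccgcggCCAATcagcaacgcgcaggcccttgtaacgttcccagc

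Bub1: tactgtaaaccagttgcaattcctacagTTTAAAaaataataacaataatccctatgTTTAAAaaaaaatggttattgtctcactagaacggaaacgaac

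Mcm5: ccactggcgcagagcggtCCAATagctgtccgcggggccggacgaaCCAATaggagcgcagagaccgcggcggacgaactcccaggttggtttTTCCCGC

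Mcm6: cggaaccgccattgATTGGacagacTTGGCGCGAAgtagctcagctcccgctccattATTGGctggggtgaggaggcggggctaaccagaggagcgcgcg

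Pcna: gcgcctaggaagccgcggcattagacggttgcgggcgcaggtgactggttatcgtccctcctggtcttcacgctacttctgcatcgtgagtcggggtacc

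The windows of Top2a, Cdc20 and Ccnb1 lie at chr10:84473094-84473193 on the minus strand, chr5:137255800-137255899 on the minus strand and chr2:33655226-33655325 on the minus strand. Those of Plk1 and Bub1 lie at chr1:186147558-186147657 on the plus strand and chr3:135504922-135505021 on the minus strand. The Mcm5, Mcm6 and Pcna windows lie at chr19:13488713-13488812 on the plus strand, chr13:42404353-42404452 on the minus strand and chr3:139955821-139955920 on the minus strand. Of the 11 windows that end at the gene's outer start, the 6 of members outside replication all held a CHR form, 5 held CCAAT, with Bub1 the exception, and 0 held the E2F letters. Of the 5 replication windows 0 held a CHR form, 3 held CCAAT (Mcm3, Mcm5 and Mcm6) and 2 held the E2F letters (Mcm5 and Mcm6). With CCAAT in 3 of these 5, it did not separate the replication genes from the others. Pcna and Rrm1 held none of the motifs in the 100 bases. In a wider window, from 250 bases before the start to 50 after, both held CCAAT and Rrm1 held the E2F letters. Over all 26 members, either CHR form stood in the window of 16 (9.8% of all 33469 promoters of the table), CCAAT in that of 18 (17.1% of all) and the E2F letters in that of 7 (3.6% of all). These are matches of letters, and no binding was measured.

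The comparison of age among the FCL-VEH rats, P90 against P42, asks how the genes differ between adulthood and adolescence. Averaged over the sexes, 7 of the 34 members fell at P90 and none rose: the proliferation marker Mki67, the cyclin Ccna2, the ribonucleotide reductase subunit Rrm2, and the spindle and kinetochore genes Cenpe, Kif11, Kif20a and Tpx2. Their log2 fold changes lay between -1.07 and -0.54. Of all 24065 genes tested, 7.18% passed the threshold in this comparison and 2.11% passed it as lower, with edgeR's quasi-likelihood test and a Benjamini-Hochberg adjusted p under 0.05. The median log2 fold change over the 34 members was -0.51, with 32 below 0, and 23 members (67.6%) had an unadjusted p under 0.05, against 23.8% of all genes. Members vary together between libraries, so such counts, here and below, are not counts of separate observations. The plot of log2 fold changes by member sets these beside the other comparisons.

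**Figure D1:**
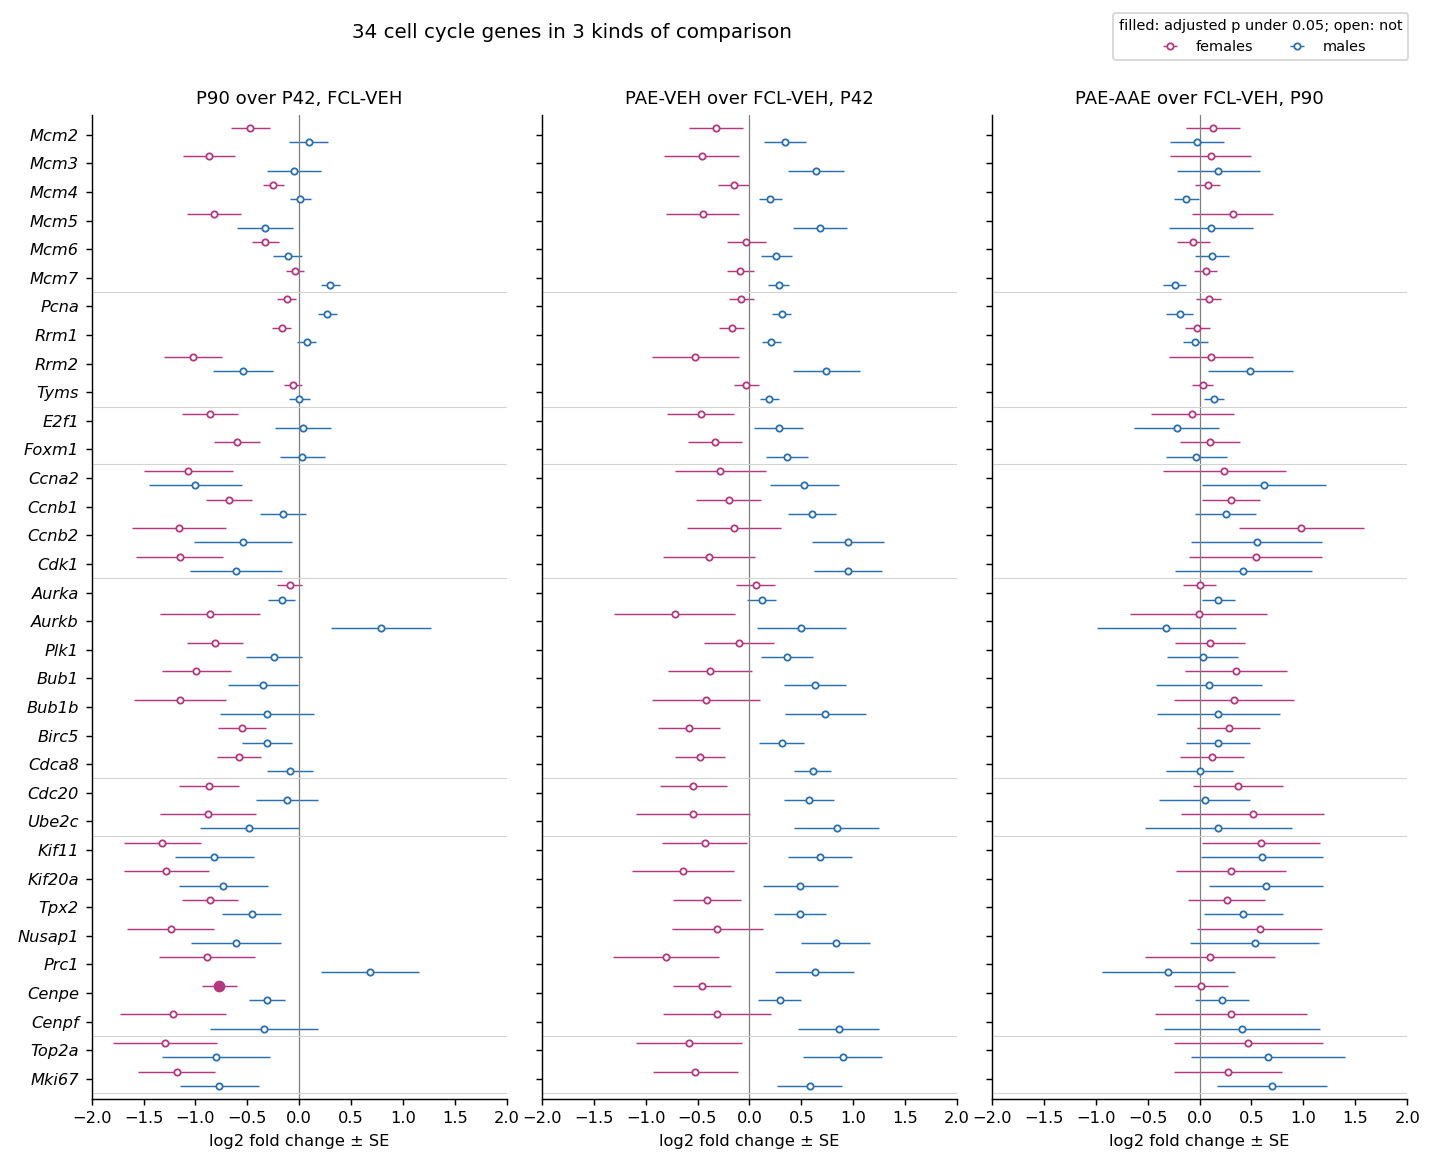
Log2 fold change of each of the 34 members (down the page, by role), with bars of 1 standard error, in females and males, for P90 over P42 in FCL-VEH rats, PAE-VEH over FCL-VEH at P42 and PAE-AAE over FCL-VEH at P90. Filled points have an edgeR adjusted p under 0.05, which held for Cenpe in females across age alone. At P42 the PAE-VEH points of males lie right of 0 for all 34 members and those of females left of 0 for 33.

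The result did not hold under every setting. The alternatives here left out only those FCL-VEH libraries that are among the 9 rich in neighbouring tissue or the 3 against their titles. Without the neighbour-rich ones, or with the ependymal, choroid plexus and cortical scores as covariates, 0 members passed. The members' median was then -0.46 and -0.34, and 316 and 622 of all genes passed in place of 1727. The 7 log2 fold changes lay between -1.15 and -0.51 without those libraries, with edgeR adjusted p of 0.0749 for Cenpe to 0.206 for Tpx2. Without the FCL-VEH libraries that went against their titles, 7 members passed and the median was -0.55. DESeq2 called 14 members, and 2414 of all 38887 genes. limma voom called 10 members, and 1889 of all 24065 genes. Leaving out 1 library at a time gave 3 to 17 members. The count was 17 without FCL-VEH P90 female replicate 6, 13 without P90 male replicate 3, 12 without P42 female replicate 1 and 11 without P42 female replicate 5. It was 3 without P42 female replicate 4 or P90 male replicate 6, and 4 without P42 female replicate 6, P42 male replicate 8 or P90 male replicates 4 or 5. Cenpe, Kif11 and Rrm2 passed in all 30 of these fits, Mki67 in 28, Tpx2 in 23, Kif20a in 19 and Ccna2 in 14.

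Among the replication licensing genes, which encode the 6 subunits of the MCM2-7 helicase, none passed for the mean of the sexes, and their median log2 fold change was -0.21. Mcm7 had 24.1, 28 and 34.1 CPM (lowest, median and highest) in P90 females and 25.6, 26.9 and 33.6 in P90 males, against 21.2, 29.5 and 37 in P42 females and 20.6, 22.3 and 27.1 in P42 males. In males alone it was the member with the smallest p, with a log2 fold change of 0.30 ± 0.09 (SE) and an edgeR adjusted p of 0.0726. Mcm6 had 11, 12 and 16.8 CPM in P90 females and 9.68, 12.4 and 13 in P90 males, against 9.96, 16 and 23.4 in P42 females and 10.8, 12.7 and 16.2 in P42 males. For both genes the ages overlapped in each sex.

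Of the clamp and nucleotide supply genes, Rrm2 fell. Rrm2, the regulated small subunit of ribonucleotide reductase, had 2.14, 3.55 and 6.42 CPM in P90 females and 1.51, 2.17 and 3.62 in P90 males, against 2.7, 7.21 and 16.1 in P42 females and 2.77, 3.48 and 4.45 in P42 males. Its log2 fold change for the mean of the sexes was -0.78 ± 0.20 (edgeR adjusted p = 0.017). The other members of this role lay near 0: Pcna had 33.6, 36.7 and 49.4 CPM in P90 females and 33.9, 38.4 and 52.3 in P90 males, against 32.4, 41.5 and 48.5 in P42 females and 30.4, 33.6 and 38 in P42 males. Rrm1, the large subunit of the reductase, had 33.3, 38.5 and 44.7 CPM in P90 females and 30.9, 38.2 and 42.4 in P90 males, against 33.8, 42 and 56.4 in P42 females and 32, 35.4 and 39.2 in P42 males. Log2 fold changes were 0.07 for Pcna, -0.05 for Rrm1 and -0.03 for Tyms, the thymidylate synthase, none past the threshold. The 2 reductase subunits thus differed in size of change, though that difference was not tested.

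Neither transcription factor passed. E2f1, an activator of the replication genes, had 2.67, 4.99 and 8.25 CPM in P90 females and 2.02, 5.1 and 12.4 in P90 males, against 5.67, 9.07 and 15.3 in P42 females and 3.98, 5.33 and 8.07 in P42 males. Foxm1, the activator of the mitotic genes, had 1.96, 4.5 and 8.53 CPM in P90 females and 3.75, 4.61 and 5 in P90 males, against 3.85, 6.06 and 13 in P42 females and 3.75, 4.27 and 5.28 in P42 males. The medians of both were lower at P90 in females, and the ages overlapped in each sex.

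All 4 cyclin and kinase members had log2 fold changes below 0, with a median of -0.87, and Ccna2 fell. Ccna2, the cyclin of S phase and G2, had 0.949, 1.98 and 4.57 CPM in P90 females and 0.0826, 1.31 and 2.29 in P90 males, against 1.74, 4.03 and 10.5 in P42 females and 1.58, 2.41 and 3.8 in P42 males. The 0.0826 CPM rests on 6 counts in P90 male replicate 6, and the next lowest P90 male value was 0.51. The log2 fold change of Ccna2 was -1.03 ± 0.31 (edgeR adjusted p = 0.0392). Ccnb1, a partner of the mitotic kinase Cdk1, had 3.06, 4.66 and 7.4 CPM in P90 females and 2.77, 3.71 and 6.19 in P90 males, against 3.75, 6.97 and 14.2 in P42 females and 3.52, 4.37 and 4.91 in P42 males, and did not pass.

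None of the 7 kinase, checkpoint and chromosomal passenger genes passed, with a median of -0.43 and all 7 below 0. Aurkb, the catalytic subunit of the passenger complex, had 5.19, 15.8 and 76.2 CPM in P90 females and 8.99, 37.1 and 125.9 in P90 males, against 24.4, 44.8 and 82.3 in P42 females and 13.1, 20.1 and 57.5 in P42 males. Its log2 fold change was -0.86 ± 0.48 in females and 0.79 ± 0.48 in males (edgeR adjusted p = 0.38 and 0.401), opposite in sign. Aurka, the centrosome kinase, varied little: 3.77, 4.84 and 5.63 CPM in P90 females and 3.97, 4.32 and 4.88 in P90 males, against 4.44, 4.78 and 7.26 in P42 females and 3.64, 5.09 and 6.02 in P42 males. Of the genes of the anaphase-promoting complex, the activator Cdc20 had 1.74, 2.95 and 7.22 CPM in P90 females and 1.62, 2.63 and 4.82 in P90 males, against 2.94, 4.96 and 11.4 in P42 females and 2.46, 3 and 4 in P42 males. The ubiquitin-conjugating enzyme Ube2c had 0.435, 0.845 and 3.6 CPM in P90 females and 0.0755, 0.839 and 1.18 in P90 males, against 0.818, 1.57 and 4.72 in P42 females and 0.515, 0.965 and 2.25 in P42 males. Neither of these passed.

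The spindle, kinetochore and midzone genes held 4 of the 7 that fell, and all 7 genes of this role lay below 0 with a median of -0.78. Cenpe, the kinetochore motor that moves chromosomes to the spindle equator, had 3.54, 4.05 and 6.37 CPM in P90 females and 3.83, 4.19 and 4.75 in P90 males, against 4.56, 7.58 and 13.1 in P42 females and 4.03, 5.45 and 7.1 in P42 males. Its log2 fold change was -0.54 ± 0.12 (edgeR adjusted p = 0.00671). Kif11, the motor that pushes spindle poles apart, had 0.647, 2.56 and 6.98 CPM in P90 females and 0.828, 1.74 and 2.85 in P90 males, against 2.23, 5.87 and 13.6 in P42 females and 2.71, 3.06 and 3.87 in P42 males, with a log2 fold change of -1.07 ± 0.27 (edgeR adjusted p = 0.0141). Both genes had lower medians at P90 in each sex, and the ages still overlapped. Tpx2, a spindle assembly factor that binds Aurora A, had 2.7, 5.02 and 11.1 CPM in P90 females and 2.87, 3.77 and 5.73 in P90 males, against 4.69, 8.67 and 19.6 in P42 females and 4.6, 5.48 and 7.92 in P42 males (log2 fold change -0.66 ± 0.19, edgeR adjusted p = 0.0345). Kif20a, a kinesin of the midzone and cytokinesis, had 0.212, 0.951 and 1.94 CPM in P90 females and 0.227, 0.743 and 0.84 in P90 males, against 0.62, 2.13 and 5.08 in P42 females and 0.529, 0.885 and 1.86 in P42 males (log2 fold change -1.01 ± 0.30, edgeR adjusted p = 0.0371). Prc1 moved unlike them, with 2.33, 16 and 41.4 CPM in P90 females and 6.14, 20.6 and 75.9 in P90 males, against 15.4, 36.3 and 66.3 in P42 females and 9.61, 13.6 and 29.6 in P42 males, and a log2 fold change of -0.11. Libraries were not strand-specific, and in the annotation Kif11 shares 22010 bases with Ide, Kif20a 1890 with Cdc23 and Rrm2 1917 with Cys1, each on the opposite strand, so reads of these pairs cannot be told apart there.

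Mki67, the nuclear protein used to stain cycling cells, had 2.32, 9.87 and 28 CPM in P90 females and 3.9, 6.83 and 11.7 in P90 males, against 9.25, 25 and 53.2 in P42 females and 7.91, 13.2 and 16.8 in P42 males. Its log2 fold change was -0.97 ± 0.27 (edgeR adjusted p = 0.0247). Top2a, the topoisomerase of replicating and condensing chromosomes, had 2.34, 9.91 and 31.1 CPM in P90 females and 0.941, 6.84 and 11.7 in P90 males, against 5.62, 25.1 and 65.7 in P42 females and 7.13, 10.4 and 14.2 in P42 males. At -1.04 ± 0.36 its log2 fold change was as large as that of Mki67 and did not pass (edgeR adjusted p = 0.0732). In each sex the medians of both genes were lower at P90, and the ranges of the ages overlapped.

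**Figure D2:**
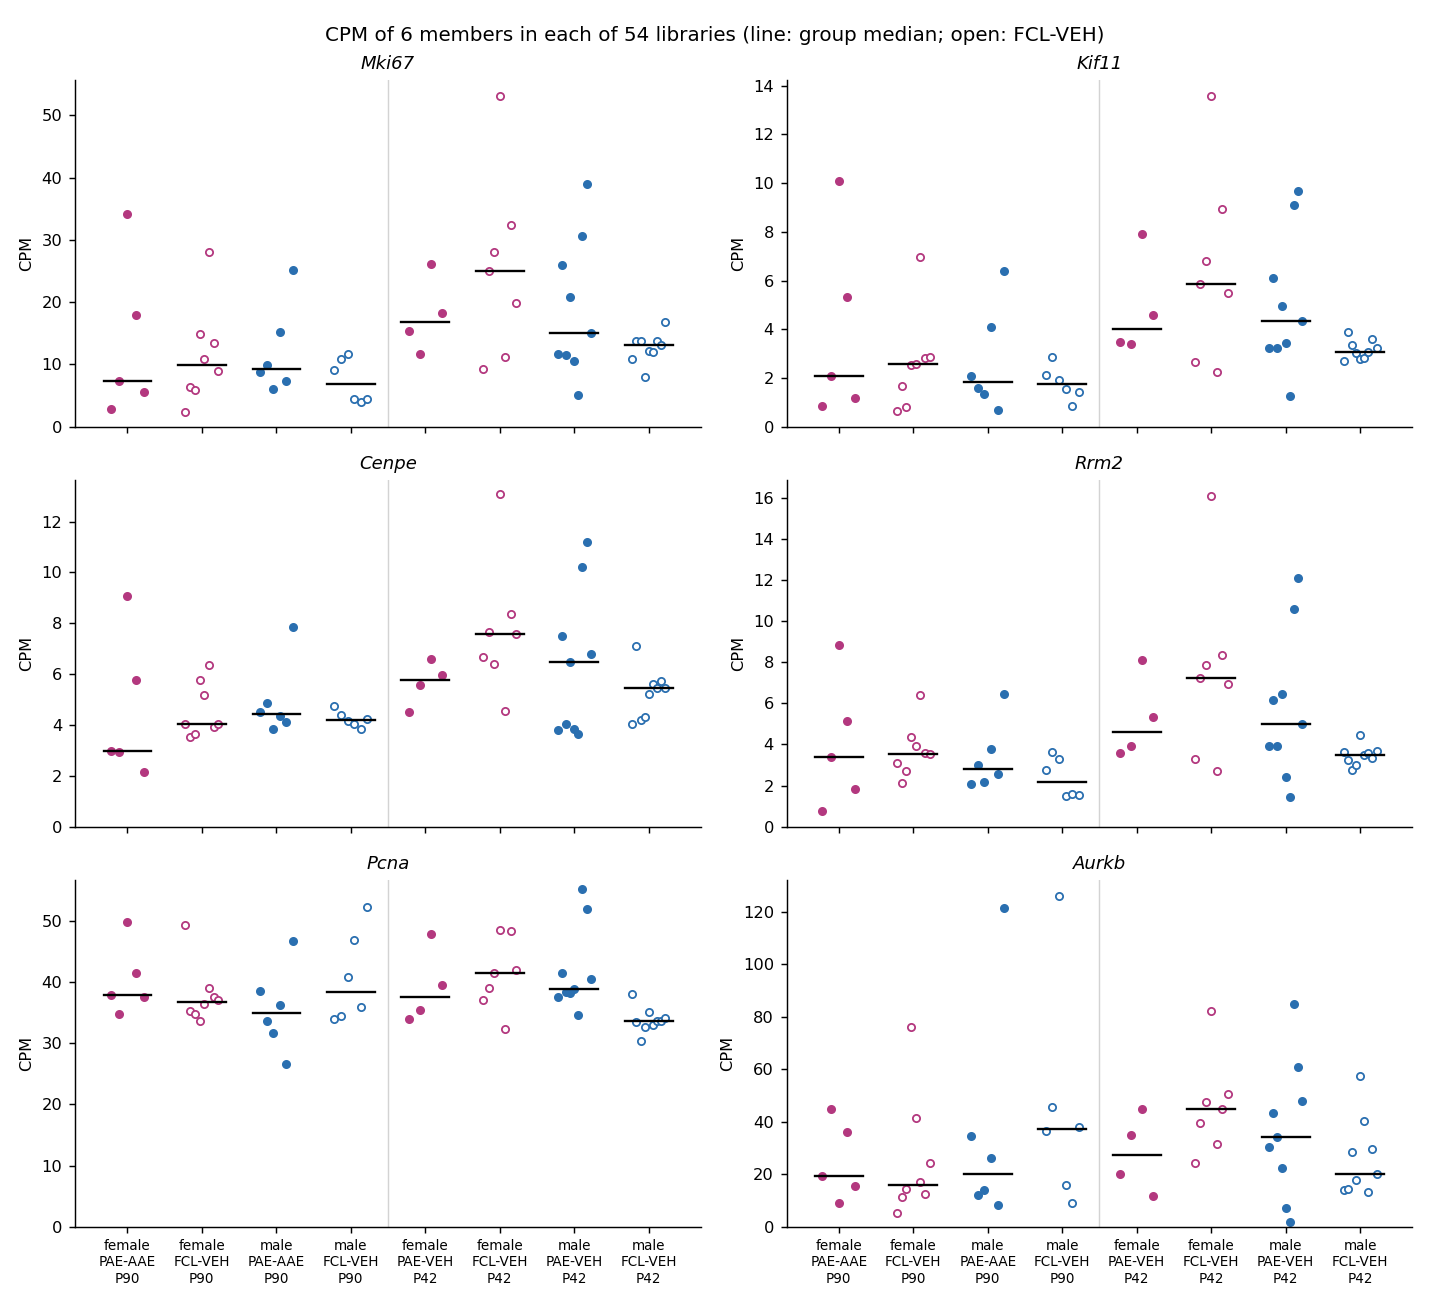
CPM of Mki67, Kif11, Cenpe, Rrm2, Pcna and Aurkb in each library, for the 8 groups along the horizontal axis, with P90 left of P42. Lines are medians and open points are FCL-VEH libraries. Pcna stays between 26.6 and 55.3 CPM, while Mki67 spans 2.32 to 53.2 and Aurkb 1.68 to 125.9.

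By sex, Cenpe was the only member that passed the edgeR test across age. In females it fell by 0.77 ± 0.17 on the log2 scale (edgeR adjusted p = 0.0254), in a comparison where 0.42% of all genes passed and 0.195% passed as lower. Rrm2 and Kif11 came next in females, at -1.02 ± 0.28 and -1.32 ± 0.37 (edgeR adjusted p = 0.0964 and 0.104). All 34 members lay below 0 in females, with a median of -0.86, and 26 (76.5%) had an unadjusted p under 0.05, against 15.3% of all genes. With the scores as covariates the median was -0.47, with 32 below 0. The count of 1 in females was 8 without P90 female replicate 6, 2 without P42 female replicate 5, whose markers went against its title, and 0 without P90 female replicates 2, 3, 7 or 8 or P42 female replicates 4 or 6. It was also 0 without the neighbour-rich libraries (Cenpe edgeR adjusted p = 0.116), with the scores as covariates (0.163) and with all 54 libraries in 1 fit. DESeq2 called 4 members in females, and 336 of all 38887 genes.

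In males 0 members passed with edgeR, where 2.53% of all genes did, and 4 had an unadjusted p under 0.05 (11.8%, against 17.6% of all genes). limma voom called 0, and DESeq2 called 1, Mcm7, which was higher at P90, with 1120 of all 38887 genes called. After Mcm7, the smallest p in males belonged to Pcna at 0.27 ± 0.09 and Ccna2 at -1.0 ± 0.45 (edgeR adjusted p = 0.125 and 0.242). The males' median was -0.28, with 24 members below 0. It was -0.13 without the neighbour-rich libraries, with 22 below 0, and -0.14 and -0.18 without P90 male replicate 5 or 4. The edgeR count in males was 1 without P42 male replicate 1, P90 male replicates 1 or 2 or P42 female replicate 5.

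The difference between the sexes in the change with age was tested directly. It passed for 0 members with edgeR, DESeq2 and limma voom, in a comparison with a background of 0% called. The unadjusted edgeR p was under 0.05 for 8 members, and for 2045 of all 24065 genes. The median difference, female minus male, was -0.50, with 33 of 34 below 0. With the scores as covariates it was -0.18, with 25 below 0, and it was -0.28 without P42 female replicate 4 and -0.76 without P90 female replicate 6. The smallest p belonged to Pcna at -0.39 ± 0.13, Mcm7 at -0.34 ± 0.13 and Aurkb at -1.65 ± 0.67 (edgeR adjusted p = 0.482, 0.504 and 0.532).

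Other cell cycle genes were read from 6 lists that hold no members, against a background of 7.18% of all genes called, 5.07% as higher and 2.11% as lower. Among 54 further genes of G2 and mitosis, 8 fell at P90 for the mean of the sexes and none rose, with a median log2 fold change of -0.46 and 51 below 0. They include the condensin subunit Ncaph (-1.04 ± 0.26, edgeR adjusted p = 0.0144), the kinetochore scaffold Knl1 (-0.94 ± 0.24, 0.0184), the chromokinesin Kif22 (-0.73 ± 0.19, 0.019), the cytokinesis factor Ect2 (-1.16 ± 0.32, 0.0258) and the checkpoint kinase Ttk (-0.62 ± 0.17, 0.0268). Of 15 origin licensing and firing genes, 3 fell: Mcm10 at -0.90, Cdc7 at -0.28 and Cdc6 at -1.07. Of 20 DNA synthesis genes, 2 rose, the single-strand binding subunit Rpa2 at 0.24 and the flap endonuclease Fen1 at 0.20. Cyclin D3 (Ccnd3) was the 1 of 9 genes of G1 cyclins and kinases that passed, and it rose, at 0.25 ± 0.04 for the mean of the sexes (edgeR adjusted p = 0.000448) and 0.33 ± 0.06 in males (0.00329). None of 6 inhibitors of cyclin-dependent kinases passed, and of 17 pocket protein and MuvB genes Lin52 rose at 0.24 and Rb1 fell at -0.14. The shares called among the synthesis, G1 and pocket protein genes rest on few genes and lie near that background. In females alone 1 of the 54 genes of G2 and mitosis passed, the condensin subunit Smc4 at -0.52 ± 0.12 (edgeR adjusted p = 0.0494).

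Markers of other cells moved beside these genes. For the mean of the sexes, the 13 neuroblast markers had a median log2 fold change of -0.21 at P90, and the 10 markers of neural stem and transit amplifying cells one of -0.13. Sox11 (-0.47 ± 0.12) and Nes (-0.60 ± 0.11), 1 of each list, fell (edgeR adjusted p = 0.0202 and 0.00117), where 2.11% of all genes passed as lower. Gpr17, a receptor of newly forming oligodendrocytes, fell by 0.81 on the log2 scale (edgeR adjusted p = 3.67e-06). The 13 ependymal markers lay lower in females, with a median of -0.86 and all 13 below 0, and higher in males, with a median of 0.63 and all 13 above 0. The ependymal score, a mean of centred log2 CPM over the list, ran from -1.63 to 1.23 in P90 females and from -1.01 to 2.06 in P90 males, against 0.30 to 1.41 in P42 females and -1.11 to 1.02 in P42 males. The neuroblast score ran from -0.36 to 0.38 in P90 females and from -0.53 to 0.20 in P90 males, against -0.38 to 0.82 in P42 females and -0.40 to 0.03 in P42 males. No marker of these 2 lists had a group median of 0, and Foxj1, the regulator of motile cilia, had group medians of 29.3 to 71.9 CPM and the neuroblast gene Dcx 49.2 to 82.8. The part of neuroblast, stem cell or oligodendrocyte markers in the result was not tested.

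The comparison of prenatal ethanol at P42, PAE-VEH over FCL-VEH, gave opposite signs in the sexes and no member past the threshold. In males all 34 members had log2 fold changes above 0, with a median of 0.55, and in females 33 lay below 0, with a median of -0.40 and Aurka at 0.06. With edgeR, 0 members passed in either sex, for their mean or for their difference, where 0% of all genes did; DESeq2 and limma voom also called 0 members in each. The unadjusted p was under 0.05 for 18 members in males (52.9%, against 8.96% of all genes) and for 19 in the difference between the sexes (55.9%, against 10.6%). In females it was under 0.05 for 0 members, against 2786 of all 24741 genes. These genes vary together between libraries, so the counts are not counts of separate observations. Every member's libraries overlapped between the groups in each sex.

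In males the 3 members with the smallest p were Pcna, Cdca8 and Cdk1. Pcna had 34.6, 38.8 and 55.3 CPM in PAE-VEH males, against 30.4, 33.6 and 38 in FCL-VEH males, with a log2 fold change of 0.31 ± 0.09 (edgeR adjusted p = 0.311). Cdca8, the passenger complex subunit Borealin, had 2.3, 3.49 and 5.43 CPM in PAE-VEH males, against 1.77, 2.26 and 3.13 in FCL-VEH males (0.61 ± 0.18, edgeR adjusted p = 0.326). Both genes had higher medians in PAE-VEH males, with overlap. Cdk1 had 1.43, 2.77 and 8.15 CPM in PAE-VEH males, against 1.41, 1.81 and 3.07 in FCL-VEH males (0.95 ± 0.33, edgeR adjusted p = 0.424). Mki67 had 5.07, 15.1 and 39 CPM in PAE-VEH males, against 7.91, 13.2 and 16.8 in FCL-VEH males. Its range was wider in PAE-VEH males at both ends, and the same held for Top2a, with 4.88, 15.4 and 46.5 CPM against 7.13, 10.4 and 14.2, and for Kif11, with 1.24, 4.35 and 9.68 against 2.71, 3.06 and 3.87. PAE-VEH male replicate 8 had the 39 CPM of Mki67 and replicate 6 the 5.07. Replicate 6 also had the 4.88 CPM of Top2a and is among the libraries rich in neighbouring tissue, with a cortical score of 3.55. The next lowest PAE-VEH male values were 10.5 CPM for Mki67 and 9.2 for Top2a, above the lowest of FCL-VEH males. For these 2 genes the wider lower end thus rests on that 1 library.

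In females Cdca8, Birc5 and Cdc20 had the smallest p. Cdca8 had 2.93, 3.02, 3.67 and 2.34 CPM in the 4 PAE-VEH libraries, against 2.61, 4.08 and 5.98 in FCL-VEH females (-0.48 ± 0.24, edgeR adjusted p = 0.458). Birc5, the passenger subunit survivin, and Cdc20 had log2 fold changes of -0.58 ± 0.30 and -0.54 ± 0.32 (edgeR adjusted p = 0.465 and 0.529). Mki67 had 15.4, 11.6, 26.2 and 18.3 CPM in PAE-VEH females, against 9.25, 25 and 53.2 in FCL-VEH females, so the PAE-VEH values lay inside the FCL-VEH range. Top2a had 15.8, 12.6, 28.8 and 17.6 CPM in PAE-VEH females, against 5.62, 25.1 and 65.7 in FCL-VEH females, again inside it. For the mean of the sexes the smallest p belonged to Pcna at 0.12 ± 0.07, Ccnb2 at 0.40 ± 0.28 and Mcm7 at 0.09 ± 0.08 (edgeR adjusted p = 0.559, 0.602 and 0.682).

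The difference between the sexes in this effect, female minus male, lay below 0 for all 34 members with a median of -1.05. Its smallest p belonged to Cdca8 at -1.09 ± 0.30, Cdc20 at -1.10 ± 0.40 and Pcna at -0.39 ± 0.15 (edgeR adjusted p = 0.231, 0.347 and 0.356). Without the 3 libraries that went against their titles, 0 members passed and the medians were 0.66 in males, -0.51 in females and -1.22 for the difference. Leaving out 1 library at a time, the medians ran from 0.37 to 0.65 in males and from -0.58 to -0.14 in females, the last without FCL-VEH female replicate 4. With the ependymal, choroid plexus and cortical scores as covariates they were 0.54, -0.02 and -0.54. Ependymal markers showed the same signs as the members: all 13 lay above 0 in PAE-VEH males, with a median of 0.32, and all 13 below 0 in PAE-VEH females, with a median of -0.80. The ependymal score ran from -3.96 to 1.68 in PAE-VEH males and from -1.33 to 0.87 in PAE-VEH females, against -1.11 to 1.02 in FCL-VEH males and 0.30 to 1.41 in FCL-VEH females. The 13 neuroblast markers had medians of 0.30 in males and -0.18 in females, and their part was not tested.

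At P90, PAE-AAE over FCL-VEH, the members' values spread widely, and a change in them was neither shown nor excluded. With edgeR 0 members passed in males, in females, for their mean and for their difference, where 0%, 0%, 0.00416% and 0% of all genes did, and DESeq2 and limma voom called 0 members. An unadjusted p under 0.05 was seen for 1 member in males, Mcm7, and for 0 in females, for the mean and for the difference. Of all 24018 genes, 2100, 1015, 784 and 2544 had such a p, in the same order. Median log2 fold changes were 0.18 in males, 0.18 in females, 0.21 for the mean and 0.09 for the difference. Leaving out a single library was enough to turn them: the median was -0.11 in males without PAE-AAE male replicate 6, and without PAE-AAE female replicate 3 it was -0.17 in females, -0.04 for the mean and -0.31 for the difference. Both of these libraries are among the 9 neighbour-rich ones. Without those of the 9 that are at P90, the medians were -0.16 in males, -0.23 in females and -0.23 for the mean. With the ependymal, choroid plexus and cortical scores as covariates they were 0.39, 0.10 and 0.27, and -0.24 for the difference, so no direction can be given.

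Mcm7 had 19.1, 23.7 and 28.8 CPM in PAE-AAE males, against 25.6, 26.9 and 33.6 in FCL-VEH males (-0.24 ± 0.11, edgeR adjusted p = 0.564). Pcna at -0.19 ± 0.13 and Tyms at 0.14 ± 0.10 followed in males (edgeR adjusted p = 0.658 and 0.685). In females Ccnb2, a cyclin of mitosis, had 0.905, 0.697, 3.61, 2.57 and 0.587 CPM in the 5 PAE-AAE libraries, against 0.16, 0.66 and 2.32 in FCL-VEH females, and its log2 fold change was 0.98 ± 0.60 (edgeR adjusted p = 1). The PAE-AAE libraries split into 2 high and 3 low values for this gene, and Ccnb1 at 0.30 ± 0.28 and Kif11 at 0.59 ± 0.57 came next. Ccnb2, Kif11 and Ccnb1 also led for the mean of the sexes, at 0.76 ± 0.44, 0.59 ± 0.41 and 0.28 ± 0.20, and Mcm7 led the difference between the sexes at 0.30 ± 0.16 (edgeR adjusted p = 0.506). Mki67 had 2.86, 7.36, 34.2, 18 and 5.5 CPM in PAE-AAE females, against 2.32, 9.87 and 28 in FCL-VEH females, and 6.04, 9.33 and 25.1 in PAE-AAE males, against 3.9, 6.83 and 11.7 in FCL-VEH males. As for Ccnb2, replicates 3 and 4 of the PAE-AAE females were the highest, and replicate 3 alone exceeded every FCL-VEH female.

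The FCL-VEH rats also allow a comparison of the sexes, female over male, with the same libraries as the age comparison. At P42 all 34 members lay above 0, with a median log2 fold change of 0.82. With edgeR 0 members passed, where 0% of all genes did, and DESeq2 and limma voom called 0 members. An unadjusted p under 0.05 was seen for 30 members (88.2%), against 6.08% of all genes, though members that vary together are not separate observations. The smallest p belonged to Rrm2, with 2.7, 7.21 and 16.1 CPM in P42 females, against 2.77, 3.48 and 4.45 in P42 males (1.11 ± 0.27, edgeR adjusted p = 0.674). Cdca8 at 0.83 ± 0.20 and Mcm7 at 0.34 ± 0.09 came next (edgeR adjusted p = 0.679 for each). Both lowest Rrm2 values among the females belonged to replicates 5 and 1, and replicate 5 carried male markers. Rrm2 passed when replicate 5 alone was left out, in 1 of the 30 fits that each left out 1 library. Without the FCL-VEH libraries that went against their titles, 0 members passed, Rrm2 among those that did not, while 13 of all genes did. The median was then 0.95, and with the scores as covariates it was 0.43. Beside this, the 13 ependymal markers had a median of 0.79 and the 13 neuroblast markers one of 0.49.

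At P90 the female over male median was 0.23, with 28 of 34 above 0. It was 0.09 without female replicate 6, 0.15 without male replicate 5 and 0.39 without male replicate 3. With edgeR 0 members passed, where 0.0499% of all genes did and 0.0332% passed as lower in females. DESeq2 and limma voom called 0 members. The unadjusted edgeR p was under 0.05 for 1 member, Rrm2, and for 1409 of all 24065 genes. The smallest p belonged to Rrm2 at 0.64 ± 0.29, Ccna2 at 0.85 ± 0.46 and Aurkb at -0.84 ± 0.49 (edgeR adjusted p of 0.818 for Rrm2 and 0.827 for Aurkb). The comparisons of age, sex and exposure share their FCL-VEH libraries: the FCL-VEH females of P42 stand in 3 of them and had the highest median score over all members, 0.64, with a range of -0.24 to 1.57. PAE-VEH females of the same age had 0.20 (0.12 to 0.77), PAE-VEH males 0.32 (-0.73 to 1.26) and FCL-VEH males -0.08 (-0.38 to 0.06). A level in that 1 group therefore enters each of these comparisons.

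Between libraries of a group, most members moved as a block. After the group means were removed, the median Pearson correlation over the 561 pairs of members was 0.72, with a range of 0.04 to 0.97 over the 54 libraries; these correlations share each library's depth and tissue and are given as a description. With Mki67, the correlation was 0.96 for Nusap1, 0.93 for Top2a and 0.87 for Cdk1, and it was 0.51 for Aurka, 0.39 for Pcna and 0.13 for Tyms. The non-member genes most like Mki67 over the 54 libraries were Ect2, Aspm and Cdca7 (r = 0.94 each), Ndc80 (0.93), Espl1, Cdk6 and Ncaph (0.92), and Mms22l, Pbk and Kif23 (0.91). Aspm, a spindle pole protein, Ndc80, a kinetochore subunit, and Kif23, a cytokinesis kinesin, are like most members genes of mitosis.

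The levels of Mki67 also moved with marker scores of other cells, in 13 relations whose p was adjusted over the 13. With the neuroblast score Mki67 had r = 0.85 and rho = 0.88 over 54 libraries (permutation p = 1e-05, the smallest that the permutations can give; adjusted 6e-05), and r = 0.84 without the 2 libraries farthest from the median score. With the neural stem and transit amplifying score it had r = 0.81 and rho = 0.82 (permutation p = 1e-05, adjusted 6e-05), and 0.79 without the 2 farthest. The ependymal score gave r = 0.52 and rho = 0.52 (permutation p = 2e-04, adjusted 4e-04), and 0.41 without the 2 farthest. Scores of glia that can divide in the parenchyma ran the other way: r = -0.59 and rho = -0.63 for oligodendrocyte precursors (permutation p = 4e-05 and 2e-05) and r = -0.62 and rho = -0.58 for microglia (permutation p = 2e-05 for each), with -0.49 and -0.51 without the 2 farthest. Newly forming oligodendrocytes had r = -0.55 and astrocytes r = -0.36 (permutation p adjusted 2e-04 and 0.038). The medium spiny neuron score was positive, with r = 0.33 (permutation p adjusted 0.042), and 0.18 without the 2 farthest. For astrocytes and medium spiny neurons rho did not pass. The choroid plexus, cortical, endothelial, leukocyte and septal scores had r from -0.22 to 0.14 and did not pass. Values are relative to a library's total, so more of 1 tissue means less of another, and the part of this was not tested. The marker lists hold no members.

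**Figure D3:**
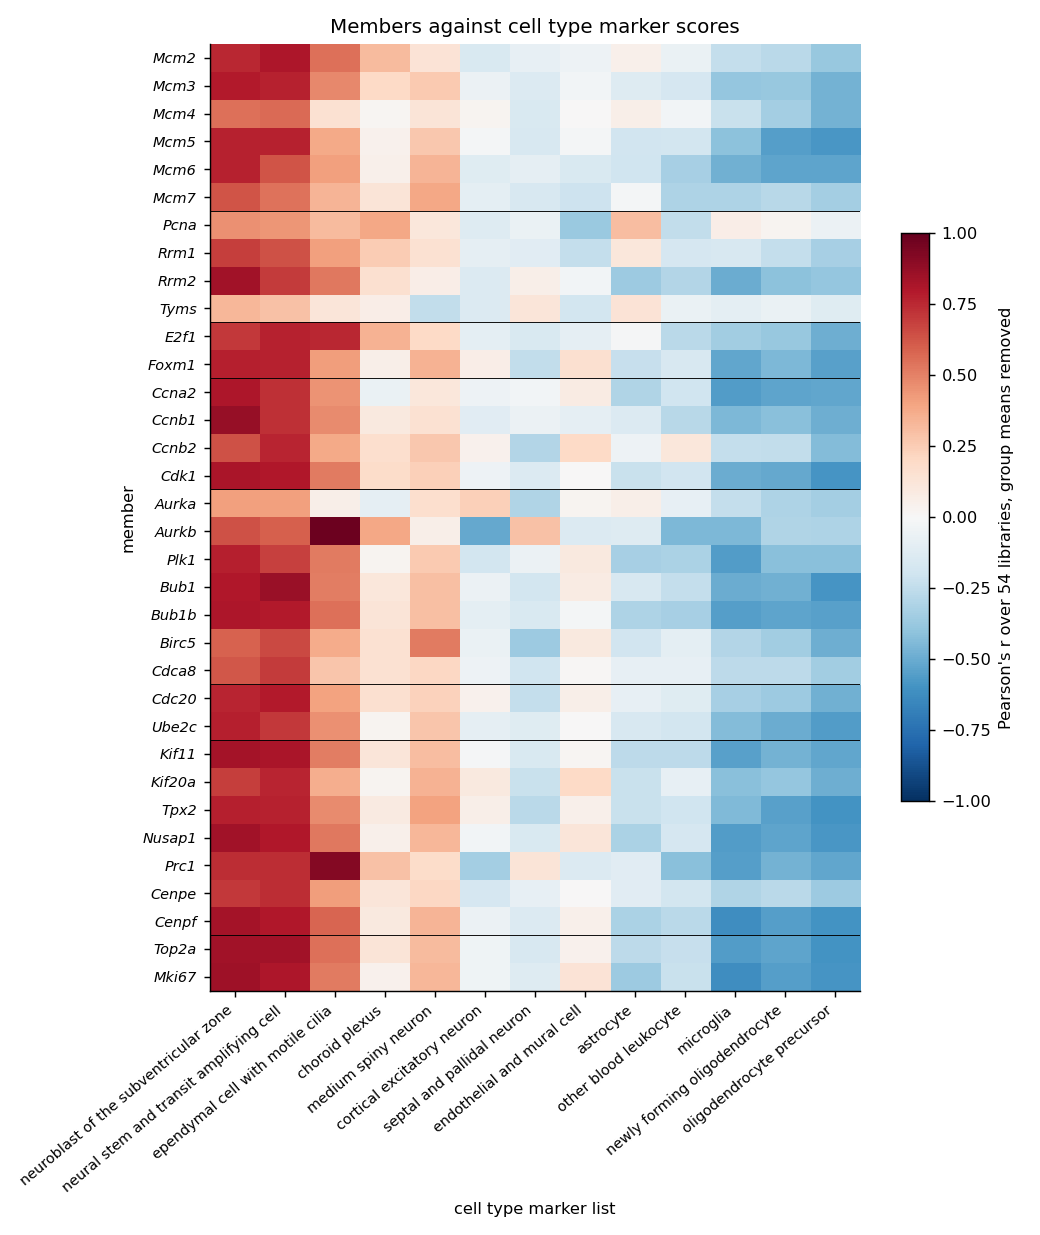
Pearson correlation over 54 libraries, group means removed, of the log2 CPM of each of the 34 members (down the page) with the scores of 13 marker lists (across). Colours run from negative to positive; Aurkb and Prc1 stand out in the ependymal column, at 0.98 and 0.92.

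The same relations were computed for all 34 members after the values for Mki67 had been seen, 442 in all, with p adjusted over the 442. The neuroblast score gave the highest r for 21 members, the stem cell score for 11 and the ependymal score for 2, Aurkb and Prc1. For neuroblasts r ran from 0.33 for Tyms to 0.87 for Ccnb1 with a median of 0.77, and it passed for every member but Tyms (adjusted p = 0.065 by permutation). Aurkb followed the ependymal score with r = 0.98 and rho = 0.98 (permutation p = 1e-05, adjusted 8e-05), and with r = 0.97 both without the 2 farthest libraries and without the 9 neighbour-rich ones. Prc1 had r = 0.92 and rho = 0.93 with it, and 0.91 and 0.93 in those settings. The median over members was 0.46. PAE-VEH male replicate 6 had the lowest ependymal score, -3.96, and 1.68 CPM of Aurkb, while PAE-AAE male replicate 6 and FCL-VEH P90 male replicate 3, both at 2.06, had 121.2 and 125.9 CPM. Mki67 in these 3 libraries was 5.07, 25.1 and 11.7 CPM.

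**Figure D4:**
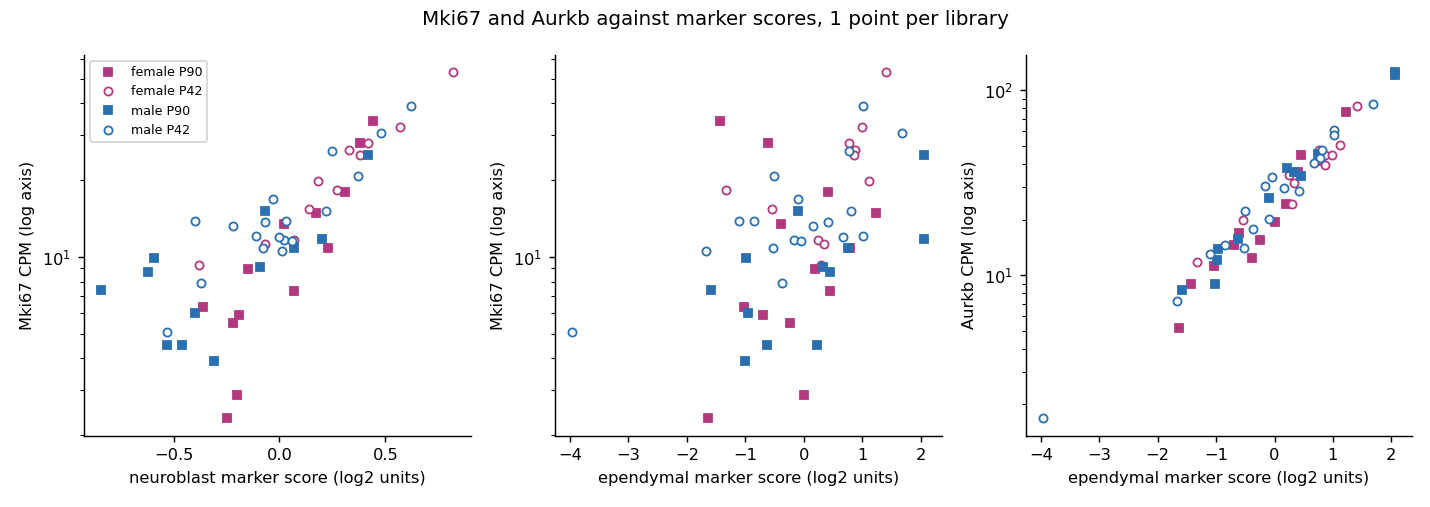
CPM on a log axis of Mki67 against the neuroblast score, of Mki67 against the ependymal score and of Aurkb against the ependymal score, 1 point per library. Aurkb spans 1.68 to 125.9 CPM along the ependymal score, while Mki67 is scattered along it.

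The non-member genes most like Aurkb were Saxo4, C3h20orf96, Cfap46, Cfap57 and Ccdc146, each with r = 0.98; Cfap46 and Cfap57 encode proteins of motile cilia and flagella. For Prc1 the closest included Myb, Dnaaf11, Nme9 and Gas2l2, with r = 0.95 each. The annotation places no other gene over Aurkb. Of the genes nearest to it, Tmem107, a protein of the cilium's transition zone, had r = 0.82 with it, and Borcs6, Pfas and Ctc1 had -0.43, 0.38 and 0.41; next to Prc1, Ngrn, Vps33b, Rccd1 and Unc45a had -0.59, -0.14, -0.20 and -0.31.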

How the data were processed

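The authors deposited raw read counts and FPKM per gene for 54 libraries of accumbens RNA; counts were used for every test and FPKM only to order levels between genes. Per the labels' protocols, cDNA came from random hexamers in libraries that were not strand-specific, RNA integrity numbers lay above 6.3 except for one of 5.8, with a mean of 7.2, and all libraries share 1 batch date; no litter is given. Per the submitters' processing notes, fastp and HISAT2 2.0.5 were used; neither the genome build nor the read counter is named (not given in the sources used here). Gene positions of all 34 members and of 45780 of the 45785 named genes matched the GRCr8 RefSeq annotation. The 720 loci with no name took 0.271% to 0.412% of a library's counts and were left out.

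Groups came from the sample titles, and replicate numbers are names in accession order that pair nothing. edgeR 4.0.16 in R 4.3.3 (TMM scaling, filterByExpr by group, quasi-likelihood F test, two-sided) was fitted to 29 P42 libraries (24741 genes), 25 P90 libraries (24018 genes) and 30 FCL-VEH libraries (24065 genes), with Benjamini-Hochberg adjustment over all genes and a threshold of 0.05. No pair of libraries held identical counts. Standard errors (SE) of log2 fold changes were derived from the F statistic. Alternatives were RLE size factors, library totals, no filter, DESeq2 1.42.0, limma voom 3.58.1, all 54 libraries in 1 fit, fits without the 3 libraries against their titles, without 9 libraries with a neighbouring-tissue score over 3 scaled median absolute deviations above the median, with 3 scores as covariates, and without each library in turn, 113 fits in all. Each fit left out only those of the 3 or 9 libraries that it held. A self-test on simulated counts with 200 changed genes was run for the female comparison of each fit. Of genes changed 2-fold it recovered 60% for exposure at P42, 70% for exposure at P90 and 67% for age. Of those changed 1.5-fold it recovered 45%, 41% and 57%.

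Scores are means of log2 CPM (prior count 2) centred per gene. Correlations used residuals from group means, with 100000 permutations, under Python 3.11.15, numpy 2.4.6, pandas 2.3.3, scipy 1.17.1 and matplotlib 3.10.9. Counting error is larger where counts are low, and the lowest counts in a library were 5 for Ube2c, 6 for Ccna2 and 13 for Ccnb2. Reads carry no molecular identifiers. The members, marker lists and pathway lists were chosen with earlier results of these data known. Named members are those past the threshold, the 3 with the smallest p in each comparison, the 2 most abundant of each role, and Mki67 and Top2a; of the pathway lists, up to 6 past the threshold by smallest p were named by rule, and further names where a list had few were chosen after their values were seen.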

Additional observations from a re-analysis of the deposited data

Results flagged for a closer look

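In groups of 4 to 10 libraries, the highest or lowest library stood apart from its group by Dixon's 95% criterion in 33 of 272 member and group combinations; chance flags about 1 in 20 groups, and members that move together within a library are not separate cases. Values are CPM. FCL-VEH P90 female replicate 6 was the highest of its group for 8 members: Mcm5 (6.71), Ccnb1 (7.4), Cdk1 (4.65), Bub1b (4.12), Cdc20 (7.22), Ube2c (3.6), Kif11 (6.98) and Tpx2 (11.1). PAE-VEH P42 female replicate 3 stood apart for 6, as the highest for Mcm2 (12), Mcm7 (32.5), E2f1 (10.8), Bub1b (4.16) and Tpx2 (10.2) and as the lowest for Mcm4 (11.2). FCL-VEH P90 male replicate 3 was the highest for 5, Mcm2 (11.9), E2f1 (12.4), Ccnb1 (6.19), Aurkb (125.9) and Prc1 (75.9). PAE-AAE male replicate 6 was the highest for 5, E2f1 (12.1), Aurkb (121.2), Cdca8 (3.62), Prc1 (70.5) and Cenpe (7.84). PAE-AAE female replicate 3 was the highest for Bub1b (5.28), Birc5 (4.13) and Tpx2 (16.9), and FCL-VEH P42 female replicate 4 for Rrm2 (16.1) and Aurka (7.26). Single values were Pcna in FCL-VEH P90 female replicate 1 (49.4), Ccnb2 in PAE-VEH male replicate 8 (3.59), Cdk1 in FCL-VEH P42 male replicate 9 (3.07), and Kif20a in FCL-VEH P90 male replicate 5 (0.227, the lowest).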

How the results depend on the processing

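In the age comparison of FCL-VEH rats the count of members past the threshold was 7 for the mean of the sexes, 1 in females and 0 in males. DESeq2 called 14, 4 and 1, with 2414, 336 and 1120 of all 38887 genes called. Without the FCL-VEH libraries among the 9 neighbour-rich ones the counts for the mean and for females were 0 and 0, and with the scores as covariates 0 and 0. With all 54 libraries in 1 fit the count in females was 0. Leaving out 1 library gave 3 to 17 for the mean, 0 to 8 in females, 0 to 1 in males, and 0 to 1 for female over male at P42. The cause of these differences was not tested. No value changed sign past the threshold in any alternative; RLE factors, library totals, the filter and limma voom kept each of these counts within 1.5 times. Over all genes, the count for the mean of the sexes was 1727, 316 without the neighbour-rich libraries and 622 with the scores. It was 1098 without the FCL-VEH libraries among the 3 against their titles. In males it was 610, with 29 to 1120 under the alternatives of tool, filter and libraries, and in females 0.42% of genes passed, with counts of 43 to 336 under the alternatives. DESeq2 called 24, 80, 21 and 60 genes in the P42 exposure comparisons (males, females, mean, difference), where edgeR called 0. No paired analysis was possible because the labels carry no replicate numbers that link libraries across groups.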

Other observations

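Tyms varied apart from the other members, with a median r of 0.24 with them. Pcna had a median r of 0.52, near those of the mitotic kinases Aurka (0.51) and Aurkb (0.48). The genes most like Pcna over the 54 libraries were Cdk4 (r = 0.82), Ptma (0.80) and its fellow member Rrm1 (0.80), and the gene most like Tyms was Dnmt1, the maintenance DNA methyltransferase, at 0.58. E2f1, the other member with a high ependymal correlation (0.75), had 0.77 with the stem cell score.

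Astrocyte and microglia markers ran opposite to the members across age: all 8 of each list lay above 0 for the mean of the sexes. Their median log2 fold changes were 0.26 and 0.25. With edgeR 4 and 2 of them rose, where 5.07% of all genes passed as higher.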
